A study of Glycine max with 8 samples.

Results

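Phytochromes are the red and far-red light receptors of plants, and 8 soybean (Glycine max) phytochrome genes were followed here, namely phyA1, phyA2, phyA3, phyA4, phyB1, phyB2, phyE1 and phyE2. They were looked up by locus ID in a table of 31785 genes, with no use of their measured values; the table gives IDs only, and the gene names are the published ones for these loci. The table listed 6 of the 8. The phyA4 locus on chromosome 3 (Glyma.03G227300.Wm82.a4.v1) and the phyE2 locus on chromosome 15 (Glyma.15G196500.Wm82.a4.v1) are not listed, and nothing is reported on their levels. Messenger RNA was measured by RNA sequencing in mature leaves of the line labelled OX5 and of wild type (WT), 4 libraries each, all from plants with enough phosphorus at growth stage R6, when the pods hold full-sized seeds. The labels do not give the gene altered in OX5, its promoter, the cultivar, the light conditions or the hour of sampling. Nor do they state if replicate libraries are separate plants, so a p-value here covers the spread between the libraries, which can be a technical spread.

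A phytochrome is a protein that carries a light-absorbing bilin pigment. Red light turns it into its active form and far-red light turns it back, and the active form moves into the nucleus and acts on transcription factors and on proteins that break them down. In Arabidopsis, phyA is the light-labile receptor of far-red and very weak light, phyB is the stable main red-light receptor, and phyE acts beside phyB. Soybean carries most of these receptors as duplicated pairs, since its genome is an ancient polyploid. In soybean, phyA2 and phyA3 are the maturity genes E4 and E3, which delay flowering in long days by keeping up the flowering repressor E1.

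Whole reads recovered from the table numbered 17536942 to 19139497 per library in OX5 and 18768431 to 19156866 in WT. The listed phytochrome genes together took 2586 to 3732 of these reads in OX5 libraries and 2388 to 3862 in WT libraries. Replicates of OX5 fall into pairs in these data: log2 values correlated across genes, which are not independent replicates, at 0.982 between OX5 replicates 1 and 2, at 0.978 between 3 and 4, and at 0.90 to 0.938 across those pairs. Replicates of WT were uneven too, with correlations from 0.924 (1 and 4) to 0.974 (1 and 3). Values without each OX5 pair are given beside the genes and shares that move with these pairs. The leaf label was not checked against marker genes, because the locus IDs are not paired with names.

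The 3 listed phyA genes and phyB1 were the more abundant phytochrome transcripts of these leaves, phyB2 was lower, and phyE1 was near the bottom of the table. FPKM is a fragment count divided by gene length and by library depth, so levels of different genes can be set side by side as far as the lengths used hold. Over the 8 libraries the mean was 9.07 FPKM for phyA2 (Glyma.20G090000.Wm82.a4.v1, chromosome 20), 7.77 for phyA3 (Glyma.19G224200.Wm82.a4.v1, chromosome 19) and 7.25 for phyA1 (Glyma.10G141400.Wm82.a4.v1, chromosome 10). It was 5.34 FPKM for phyB1 (Glyma.09G035500.Wm82.a4.v1, chromosome 9), 3.59 for phyB2 (Glyma.15G140000.Wm82.a4.v1, chromosome 15) and 0.356 for phyE1 (Glyma.09G088500.Wm82.a4.v1, chromosome 9). The phyA genes ranked near the middle of the listed genes, at the 53.6th to 59.9th percentile of mean FPKM. The phyB genes stood lower, phyB1 at the 45.2nd percentile and phyB2 at the 34.8th, and phyE1 was at the 2.06th.

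In FPKM, the order of the levels was the same in every library between types and loose among the phyA genes. Of the 15 pairs that the 6 genes form, 12 stood in the same order in all 8 libraries: every phyA gene was above phyB1, phyB1 above phyB2, and phyB2 above phyE1. The smallest margin of these was that of phyA1 over phyB1, which was 1.04-fold in the closest library and 1.91-fold in the widest. That order depends on the lengths divided by, 5268 bases for phyA1 and 6601 for phyB1. In recovered reads, phyB1 was above phyA1 in WT replicate 1 (528 against 440 reads) and in OX5 replicates 1, 2 and 4. It was below phyA1 in WT replicates 2 to 4 and in OX5 replicate 3. The orders of phyA3 and phyA2 over phyB1 also depend on length. In reads phyB1 was above phyA3 in WT replicates 1, 2 and 4 and OX5 replicates 1 and 2, and below it elsewhere. It was above phyA2 in OX5 replicate 4 only (590 against 525 reads). The other 3 of the 15 pairs are those among phyA genes. The level of phyA2 was above that of phyA1 in 7 of the 8 libraries and above that of phyA3 in 6, and phyA3 was above phyA1 in 6. In WT, phyA2 was the highest of the phyA genes in all 4 libraries, while in OX5 it was above phyA3 in only 2 of 4, replicates 1 and 2. Neighbours in the order phyA2, phyA3, phyA1 lay within their spread, with log2 ratios of 0.19 ± 0.37 for phyA2 over phyA3 and 0.13 ± 0.31 for phyA3 over phyA1 (mean and SD over 8 libraries).

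**Figure D1:**
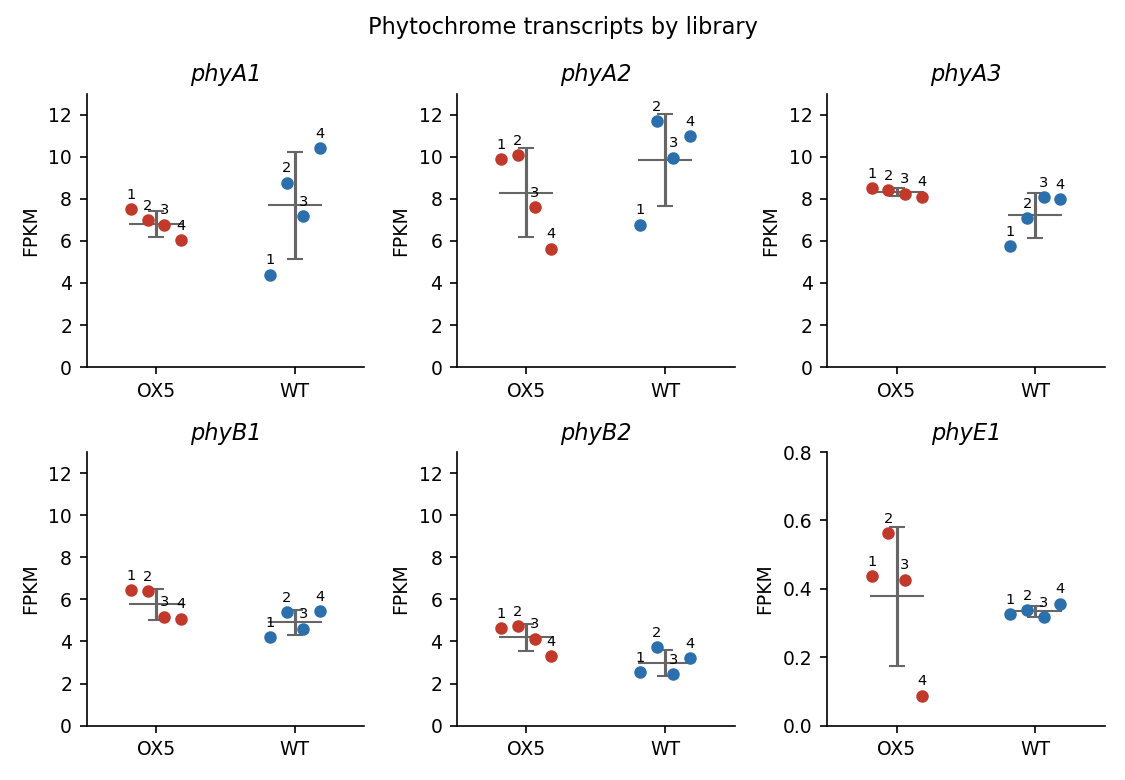
FPKM of the 6 listed phytochrome genes in each library, OX5 left and WT right; points are libraries with their replicate number, and bars are the mean and SD (n = 4). The phyA3 points of OX5 lie between 8.10 and 8.51 FPKM, the phyA1 points spread widely in WT (4.40 to 10.4 FPKM) and less in OX5 (6.03 to 7.51 FPKM), and the phyE1 panel has its own scale.

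Among the phyA receptors, phyA1, the duplicate of phyA2, had 7.51, 6.98, 6.76 and 6.03 FPKM in OX5 replicates 1 to 4, against 4.40, 8.76, 7.18 and 10.4 FPKM in WT replicates 1 to 4. The WT values enclosed all those of OX5. The mean was 6.82 ± 0.615 FPKM in OX5 and 7.68 ± 2.55 FPKM in WT (SD, n = 4 each), and the highest WT library had 2.36 times the FPKM of the lowest. The log2 fold change of phyA1, OX5 over WT on the log2(FPKM + 1) scale, was −0.10 (SE 0.22, limma adjusted p = 0.821). Its 95% interval of −0.60 to 0.39 spans falls and rises.

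For phyA2, the E4 gene, the values were 9.87, 10.1, 7.61 and 5.63 FPKM in OX5 replicates 1 to 4, against 6.78, 11.7, 9.94 and 11.0 FPKM in WT replicates 1 to 4. The lines overlapped. OX5 replicates 1, 2 and 3 were within the WT range, and OX5 replicate 4 was the lowest library of all. The mean was 8.29 ± 2.1 FPKM in OX5 and 9.84 ± 2.16 FPKM in WT (SD, n = 4 each), with a log2 fold change of −0.23 (SE 0.21, 95% interval −0.71 to 0.25, limma adjusted p = 0.565). Among the listed phyA and phyB genes, phyA2 had the widest difference within OX5, where replicates 1 and 2 averaged 9.97 FPKM and replicates 3 and 4 averaged 6.62 FPKM. That difference of 0.54 on the log2(FPKM + 1) scale is larger in size than at 70.3% of the genes tested, and it is a description without a test. Set against WT, phyA2 had a log2 fold change of 0.04 without OX5 replicates 3 and 4 and −0.50 without OX5 replicates 1 and 2 (limma adjusted p = 0.910 and 0.278).

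The third phyA gene, phyA3 or E3, was steady in OX5. Its level was 8.51, 8.39, 8.23 and 8.10 FPKM in OX5 replicates 1 to 4, against 5.75, 7.09, 8.07 and 7.97 FPKM in WT replicates 1 to 4. The lowest OX5 library was just above the highest WT library, so the lines did not overlap, as was the case for 14.2% of all genes tested. The mean was 8.31 ± 0.178 FPKM in OX5 and 7.22 ± 1.07 FPKM in WT (SD, n = 4 each). The log2 fold change was 0.19 (SE 0.13, 95% interval −0.10 to 0.47, limma adjusted p = 0.415), so the difference did not pass the test. Without WT replicate 1 it was 0.10 (limma adjusted p = 0.663). The coefficient of variation of phyA3 in OX5 was 2.15%, below the 3.87% that counting reads alone gives at its depth of 632 to 715 reads per library. Only 0.302% of tested genes varied less in OX5; in WT the coefficient of variation of phyA3 was 14.9%, against a median of 18.6% over all genes tested.

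The phyB receptors both had higher means in OX5, and neither passed the test. For phyB1 the values were 6.43, 6.38, 5.18 and 5.08 FPKM in OX5 replicates 1 to 4, against 4.21, 5.38, 4.61 and 5.44 FPKM in WT replicates 1 to 4. OX5 replicates 1 and 2 were above every WT library, and OX5 replicates 3 and 4 were within the WT range. The mean was 5.77 ± 0.740 FPKM in OX5 and 4.91 ± 0.60 FPKM in WT (SD, n = 4 each), with a log2 fold change of 0.19 (SE 0.14, 95% interval −0.11 to 0.50, limma adjusted p = 0.435). It was 0.06 without OX5 replicates 1 and 2 and 0.33 without OX5 replicates 3 and 4 (limma adjusted p = 0.863 and 0.156).

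Its duplicate phyB2 had 4.63, 4.71, 4.13 and 3.31 FPKM in OX5 replicates 1 to 4, against 2.54, 3.73, 2.44 and 3.21 FPKM in WT replicates 1 to 4. Of the OX5 libraries, 3 were above every WT library, and replicate 4 was below WT replicate 2. The mean was 4.20 ± 0.646 FPKM in OX5 and 2.98 ± 0.605 FPKM in WT (SD, n = 4 each), a ratio of means of 1.41. The log2 fold change was 0.39 (SE 0.16, 95% interval 0.03 to 0.75), the largest in size among the phytochrome genes tested. Its p was 0.038 before adjustment and 0.202 after Benjamini-Hochberg adjustment over all genes in limma, so it is not called. The unadjusted p was 0.05 or more in 8 of the 20 alternative fits and ran from 0.00125 to 0.228 over all 20. The log2 fold change was 0.25 without OX5 replicates 1 and 2 (95% interval −0.20 to 0.70) and 0.52 without OX5 replicates 3 and 4 (95% interval 0.11 to 0.94), with limma adjusted p = 0.499 and 0.0807.

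The phyE receptor was represented by phyE1 with few reads. It had 36, 49, 34 and 7 reads in OX5 replicates 1 to 4, which is 0.436, 0.563, 0.427 and 0.0878 FPKM. In WT replicates 1 to 4 it had 28, 29, 27 and 31 reads, which is 0.326, 0.337, 0.317 and 0.356 FPKM. The mean was 0.378 ± 0.203 FPKM in OX5 and 0.334 ± 0.0171 FPKM in WT (SD, n = 4 each). OX5 replicate 4 was far below all other libraries, and the other 3 OX5 libraries were above every WT library. The 7 reads of OX5 replicate 4 have an exact 95% Poisson interval of 2.81 to 14.4 reads, and the 34 reads of OX5 replicate 3 one of 23.5 to 47.5 reads; both cover counting error only. The mean of phyE1 over all libraries was under the 0.5 FPKM required for the test. With no such minimum its log2 fold change was 0.03 (95% interval −0.27 to 0.33, limma adjusted p = 0.905).

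Taking the tested genes as a list, 0 of 5 phytochrome genes were called by limma at an adjusted p under 0.05, where 2.4% of 30424 genes were. One of them, phyB2, had an unadjusted p under 0.05, which 21.7% of all tested genes had. A fit of the recovered reads with limma-voom, which called 1.43% of all genes, also called 0 of 5, with 1 at an unadjusted p under 0.05. The means were higher in OX5 for 3 genes (phyA3, phyB1 and phyB2) and lower for 2 (phyA1 and phyA2). The median log2 fold change of the 5 was 0.19, beside 0.04 for all genes tested, with an interquartile range of −0.18 to 0.27. With library quality weights, a fit that called 31.2% of all genes, 2 of the 5 were called, phyB1 (log2 fold change 0.32, limma adjusted p = 0.042) and phyB2 (0.59, limma adjusted p = 0.011). In the other 19 alternative fits none was called. The missing calls do not show that the lines are alike; the 95% intervals, on the log2(FPKM + 1) scale, leave room for folds from 0.61 for phyA2 to 1.68 for phyB2.

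**Figure D2:**
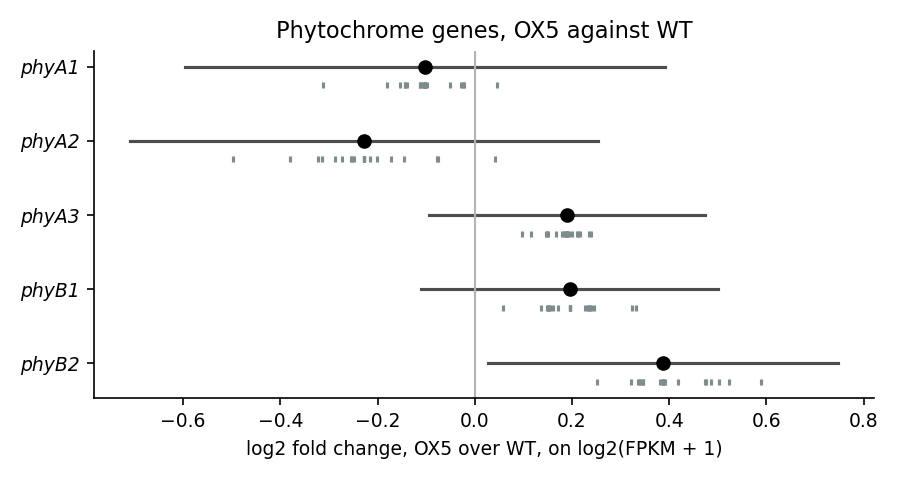
Log2 fold change, OX5 over WT, on log2(FPKM + 1) for the 5 tested genes; dots are the fit to all 8 libraries, lines its 95% intervals without adjustment, and grey ticks the 20 alternative fits. The intervals of phyA1, phyA2, phyA3 and phyB1 include 0, and that of phyB2 starts at 0.03.

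The makeup of the family, as a share of its summed FPKM, differed between the lines in the main test, a call that several alternatives did not keep. This share does not depend on how libraries are scaled to each other. The phyB genes made up 29.6%, 29.9%, 28.8% and 29.7% of the summed FPKM of the 6 listed genes in OX5 replicates 1 to 4, against 28.1%, 24.6%, 21.6% and 22.6% in WT replicates 1 to 4. The OX5 libraries lay close together above all WT libraries, with WT replicate 1 nearest to them. For comparison, the FPKM of the lines did not overlap for 14.2% of single genes tested. The background for such shares was not computed. The mean share was 29.5 ± 0.489% in OX5 and 24.2 ± 2.87% in WT (SD, n = 4 each), a difference of 5.25 percentage points (SE 1.45). The two-sided exact permutation p was 0.0286, the smallest that 4 against 4 libraries allow, and 0.0429 after adjustment over 3 types. That adjusted p is under 0.05 only because the phyA share, nearly the mirror image of the phyB share, has the same p among the 3.

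The phyA genes held the complementary share, 69.4 ± 0.656% in OX5 and 74.7 ± 3.05% in WT (SD, n = 4 each). Their difference of −5.29 points (exact permutation p = 0.0286, adjusted p = 0.0429) is nearly the same measurement as that of phyB and no second result. The phyE share was 1.08 ± 0.532% in OX5 and 1.04 ± 0.211% in WT (exact permutation p = 1.0). The phyB difference kept its direction in all 13 alternatives, between 4.39 and 6.54 points. It lost its call in 8 of them: the adjusted exact p was 0.0857 without any one OX5 library or with 1 added to each FPKM, and 0.2 without either pair of OX5 libraries. Taken within replicate numbers, the adjusted exact sign-flip p was 0.188. The last 3 of these losses were fixed by the designs, since 2 against 4 libraries allow no exact p under 0.0667 and 4 sign-flips none under 0.125. With 1 added to each FPKM, the unadjusted exact permutation p of phyB stayed at 0.0286 while that of phyA was 0.114. There phyB lost its call through the adjustment only. Without any 1 OX5 library the unadjusted exact permutation p of phyB was itself 0.0571.

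**Figure D3:**
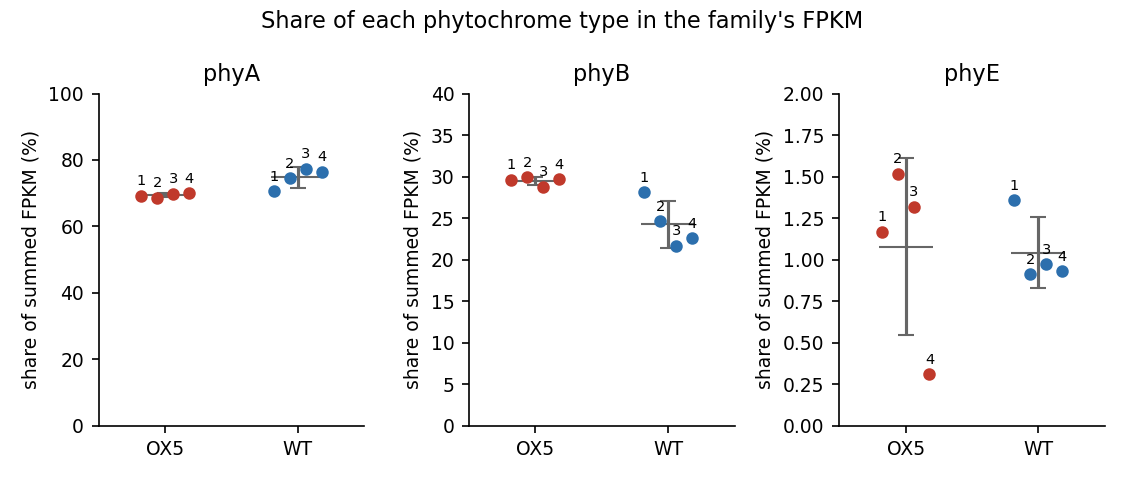
Share of the summed FPKM of the 6 listed phytochrome genes held by phyA (3 genes), phyB (2 genes) and phyE (1 gene), in percent, by library; points carry the replicate number, bars are mean and SD (n = 4), and each panel has its own scale from 0. The phyB shares of OX5, 28.8% to 29.9%, lie above those of WT, 21.6% to 28.1%.

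The level of the family as a whole did not separate the lines. The 6 genes summed to 37.4, 37.1, 32.3 and 28.2 FPKM in OX5 replicates 1 to 4, against 24.0, 37.0, 32.6 and 38.3 FPKM in WT replicates 1 to 4. The WT values enclosed those of OX5. The mean was 33.8 ± 4.36 FPKM in OX5 and 33.0 ± 6.46 FPKM in WT (SD, n = 4 each; exact permutation p = 0.857 on log2 sums). In bulk leaf RNA, fewer cells that express a gene and less of its RNA per cell cannot be told apart.

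Across the listed phytochrome genes, a single library was most often the lowest of its line. OX5 replicate 4 was the lowest OX5 library for 6 of the 6 genes, and WT replicate 1 was the lowest WT library for 4 of 6, phyA1, phyA2, phyA3 and phyB1. The share of all tested genes lowest in these libraries was not counted. OX5 replicate 4 was close to OX5 replicate 3 for phyA3 (632 against 642 reads) and phyB1 (590 against 602 reads). WT replicate 1 had 0.501 times the mean of the other WT libraries for phyA1, 0.624 times for phyA2, 0.746 times for phyA3 and 0.819 times for phyB1. The median of that ratio over all genes tested was 0.939. It also had the highest phyB share of the WT libraries, 28.1%, and without it the phyB difference between the lines was 6.54 points (adjusted exact permutation p = 0.0429). Without it the log2 fold change of phyA1 was −0.31, against −0.10 with all libraries (limma adjusted p = 0.301). With any 1 library left out, the log2 fold change ran from −0.31 to 0.05 for phyA1 and from −0.38 to −0.08 for phyA2.

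Within the duplicated pairs, one member was the higher in nearly every library. The FPKM of phyB1 was 1.39, 1.35, 1.25 and 1.54 times that of phyB2 in OX5 replicates 1 to 4, against 1.66, 1.44, 1.88 and 1.69 times in WT replicates 1 to 4. So phyB1 was above phyB2 in 8 of 8 libraries, on average 1.51-fold (mean log2 ratio 0.60, exact sign-flip permutation p = 0.0078, the smallest that 8 libraries allow, adjusted p = 0.0156 over 2 pairs). The FPKM of phyA1 was 0.761, 0.693, 0.888 and 1.07 times that of phyA2 in OX5 replicates 1 to 4, against 0.649, 0.75, 0.722 and 0.947 times in WT replicates 1 to 4. So phyA1 was below phyA2 in all libraries except OX5 replicate 4, on average at 0.80 times its level (mean log2 ratio −0.32, exact sign-flip permutation p = 0.0234, adjusted p = 0.0234). Without OX5 replicates 1 and 2 the adjusted exact p was 0.0625 for the phyB pair and 0.0938 for the phyA pair, with mean log2 ratios of 0.65 and −0.28. For the phyB pair the unadjusted p of 0.0312 was the smallest that 6 libraries allow, and the adjustment over both pairs alone took it past the threshold. The phyB ratio also depends on the lengths the authors divided by, 6601 bases for phyB1 and 4690 for phyB2: in recovered reads, not per length, its mean log2 ratio was 1.09. How reads that match both copies were assigned is not given in the sources used here, and these ratios depend on it.

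The balance within a pair was not shown to differ between the lines. The log2 ratio of phyB1 to phyB2 averaged 0.46 ± 0.12 in OX5 and 0.73 ± 0.16 in WT (SD, n = 4 each), a difference of −0.27 (SE 0.10, exact permutation p = 0.0571, adjusted p = 0.114). Only OX5 replicate 4, at 1.54-fold, and WT replicate 2, at 1.44-fold, overlapped. The log2 ratio of phyA1 to phyA2 averaged −0.25 ± 0.27 in OX5 and −0.40 ± 0.23 in WT (SD, n = 4 each), a difference of 0.15 (SE 0.18, exact permutation p = 0.429, adjusted p = 0.429).

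**Figure D4:**
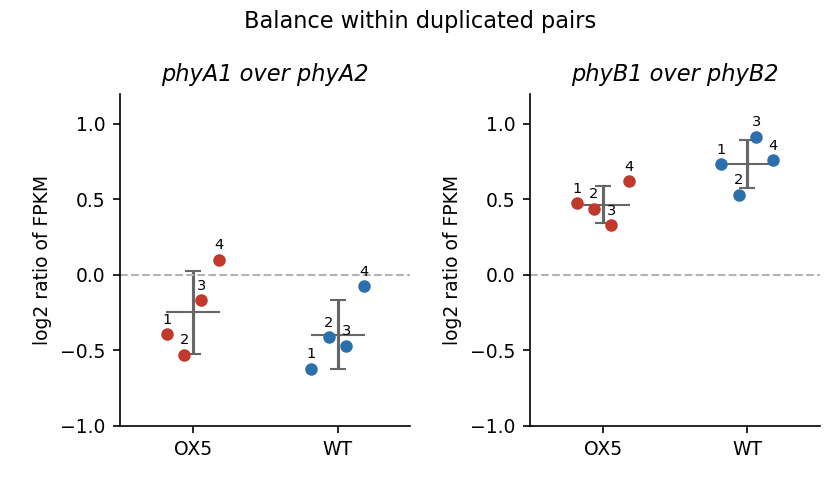
Log2 ratio of FPKM within the duplicated pairs phyA1 over phyA2 and phyB1 over phyB2, by library, OX5 left and WT right; points carry the replicate number, bars are mean and SD (n = 4), and the dashed line marks equal levels. All phyB ratios lie above 0, and all phyA ratios except that of OX5 replicate 4 lie below it.

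Across the libraries the duplicates followed each other more closely than the types did. Pearson's r of log2(FPKM + 1) over the 8 libraries, which share line and library as sources of variation, is given as a measure of likeness without a test. It was 0.906 between phyB1 and phyB2, and of the 30423 other tested genes 1.75% were more like phyB1 than phyB2 was, and 0.858% more like phyB2 than phyB1 was. It was 0.78 between phyA1 and phyA2, with 3.21% of other genes more like phyA1 and 7.57% more like phyA2. The r within a pair can also depend on how reads matching both copies were assigned, which is not given. The gene phyA3 was more like phyB1 (r = 0.686) than like phyA1 (0.534) or phyA2 (0.237). The tested gene most like phyA2 was Glyma.19G136000.Wm82.a4.v1 (r = 0.989), and the one most like phyB1 was Glyma.05G240600.Wm82.a4.v1 (r = 0.992, also over 8 libraries). Among the 30424 genes tested, 82 had r above 0.95 with phyA2 and 109 with phyB1. The matching number for a typical gene was not counted, so neither count marks a set tied to phytochromes.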

How the data were processed

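The authors deposited 1 table of FPKM values with 4 decimals and 1 column per library. The submitters' processing notes name HTSeq 0.6.0, HISAT2 2.1.0, Bowtie2 2.2.3, TopHat2 and CASAVA, without their roles. How reads matching several copies were treated, the strand setting and the build are not given in the sources used. Each FPKM is a multiple of the value of 1 read, which gave whole reads for 100% of 31785 genes (99th percentile distance from a whole number 0.00539 reads). The steps also give the gene length the authors divided by, 4429 bases for phyA3, 4526 for phyE1, 4690 for phyB2, 5268 for phyA1, 5299 for phyA2 and 6601 for phyB1. Each listed gene had at least 22 reads over the 8 libraries. A row naming no gene was left out.

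OX5 was tested against WT in limma 3.58.1 (R 4.3.3), with a variance trend, on log2(FPKM + 1) for 30424 genes whose mean reached 0.5 FPKM, with Benjamini-Hochberg adjustment over all of them and a threshold of 0.05. That scale understates the change of low genes. Shares and ratios used FPKM with no pseudocount, and exact two-sided permutation or sign-flip tests over libraries. The alternatives were 20 fits and, for shares and ratios, a pseudocount of 1, recovered reads, left-out libraries and replicate numbers. The members, lists and alternatives were chosen with earlier results of these data known. All 8 members are named, as are the genes most like phyA2 and phyB1, by highest r. The scripts were run on simulated reads with known folds and independent libraries. The simulation lacked the pairs seen in OX5, so it does not show how the tests perform with them. Python 3.11.15, numpy 2.4.6 and scipy 1.17.1 were used.

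RefSeq's gene table (Glycine_max_v4.0) holds no locus IDs of this kind. It lists symbols for 6 of the 8 genes, each on the chromosome in the ID; its coordinates were not used, and a list of light-pathway genes and one of leaf markers could not be matched. The planned comparisons within the phyA3 and phyE1 pairs were not made, since 1 gene of each is not listed.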

Additional observations from a re-analysis of the deposited data

Results flagged for a closer look

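The phyE share of the family's summed FPKM was 1.36% in WT replicate 1, far from the other WT libraries, which lay between 0.913% and 0.972%. It is the 1 lone extreme value among 24 sets of 4 values examined, and chance gives about 1 in 20. The share rests on 28 reads of phyE1, and the summed FPKM of WT replicate 1 was the lowest of all libraries, at 24.0.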

How the results depend on the processing

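Over all genes, 729 were called, against 9504 with library quality weights, 434 with limma-voom on recovered reads, 242 without OX5 replicates 1 and 2, 5503 without OX5 replicates 3 and 4, and 58 to 761 with 1 library left out. A replicate block gave 56 calls and none at a phytochrome gene. Deviations of same-numbered libraries correlated at −0.056, 0.071, 0.128 and −0.061 across genes, so the numbers are not shown to pair the samples.

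Of the phytochrome genes, 0 were called in 19 of 20 alternatives and with 1 library left out, and 2 with library quality weights. The log2 fold change changed sign for phyA1 without WT replicate 4, where it ran from −0.313 to 0.0465 with 1 library left out, and for phyA2 without OX5 replicates 3 and 4 (0.0411). Without OX5 replicates 3 and 4 the median log2 fold change of all tested genes was itself 0.12.

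For the phyB and phyA shares, the differences of 5.25 and −5.29 points lost their call with a pseudocount of 1 (4.45 and −4.41), without OX5 replicates 1 and 2 (5.0 and −4.77), without OX5 replicates 3 and 4 (5.51 and −5.81) and with the replicate block (5.25 and −5.29); the last 3 designs are too small to pass. With 1 library left out they ran from 4.39 to 6.54 and from −6.68 to −4.40. Both lost their call without any 1 OX5 library (adjusted exact permutation p = 0.0857) and kept it without any 1 WT library (0.0429). The phyE difference of 0.04 points changed sign with the pseudocount (−0.042) and without OX5 replicates 1 and 2 (−0.23), and ran from −0.11 to 0.29 with 1 library left out. The pair levels lost their call without OX5 replicates 1 and 2 (phyA −0.28; phyB 0.65, through the adjustment over both pairs only) and ran from −0.38 to −0.28 and from 0.55 to 0.64 with 1 library left out. In recovered reads the phyB level was 1.09. The phyA pair's difference between lines turned to −0.065 without OX5 replicates 3 and 4. The cause was not tested. Depth limits phyE1, with 7 to 49 reads per library.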
